A study of Mus musculus with 2 samples.

Results

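The primary cilium genes described here were 42 genes for proteins that build the primary cilium or work in it. They were chosen by name from a list of intraflagellar transport (IFT), transition zone, BBSome, Evc complex and ciliary signalling genes, and all 42 were found among the 56694 genes of the count tables. No measured value was used as a criterion, although earlier results of these data were known when the genes were chosen. Single cells from dorsal epidermis of mice at postnatal day 2 had been profiled with a polyA-primed 3′ assay of 10x Genomics, as 1 control library and 1 Gli2EKO library. Gli2EKO mice were K14Cre tg;Gli2 fl/fl, in which the Krt14 promoter drives Cre and removes floxed Gli2, an effector of Hedgehog signalling, from keratinocytes but not from the cells of the dermis. Controls were littermates with the floxed allele and no Cre, which the labels call WT, and both groups were on a C57Bl/6N background. How many mice went into each library was not given. With 1 library per genotype no difference could be set against replicates, so no p-value is reported and every interval is a 95% interval that covers counting error only.

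The primary cilium is a single, non-motile antenna of microtubules that grows from the mother centriole and carries receptors for Hedgehog and other signals. IFT-B particles with the kinesin-2 motor carry cargo towards the tip, IFT-A particles with the dynein-2 motor return it to the base, and the transition zone and BBSome control which membrane proteins enter and leave. In the skin, cilia are present on basal keratinocytes, follicle keratinocytes and dermal fibroblasts, and vertebrate Hedgehog signals pass to the Gli transcription factors through the cilium. Cilia are taken apart when cells enter division, and most blood-derived immune cells are described as lacking them.

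Many cilium genes share a promoter element, the X-box, which is bound by RFX transcription factors. A symmetrical form of it, the half-site GTTGCCA followed at once by its reverse complement, which reads the same on both strands, was sought in the RefSeq promoter windows of GRCm38.p6, which run from 250 bases before to 50 bases after each gene's start. Of the members, 35 were matched to a window by symbol, whereas Iqce, Efcab7, Ift80, Dync2li1, Ift122, Ift81 and Tmem67 were not. Within 2 mismatches the element was found for 5 of the 35 members (14.3%), compared with 1.4% of all 27025 genes, and within 3 mismatches for 9 (25.7%), compared with 3.84%. No member held it with fewer than 2 mismatches. The 5 closest matches belonged to the BBSome subunits Bbs1 and Bbs7 and the transition zone genes Mks1, Tctn1 and Tctn2. Those of Ift57 and Dync2h1, with 3 mismatches, are printed because both genes recur in the comparisons below. Capitals mark the element, 8 flanking bases stand on either side except where the window ended, and the strand is that of the gene.
Bbs1: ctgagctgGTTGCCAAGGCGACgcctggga
Bbs7: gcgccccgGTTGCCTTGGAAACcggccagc
Mks1: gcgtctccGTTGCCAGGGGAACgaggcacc
Tctn1: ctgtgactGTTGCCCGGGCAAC
Tctn2: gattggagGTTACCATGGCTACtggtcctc
Ift57: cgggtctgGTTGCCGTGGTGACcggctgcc
Dync2h1: gtgaagcgGTCGCCATAGCGACggagcttg
Each printed stretch matched GRCm39, the build of the count tables, exactly and at 1 place on its chromosome. These places were chr19:4956633-4956662 (-) for Bbs1, chr3:36667638-36667667 (-) for Bbs7, chr11:87744009-87744038 (+) for Mks1 and chr5:122402474-122402495 (-) for Tctn1. The stretches of Tctn2, Ift57 and Dync2h1 lay at chr5:124736742-124736771 (+), chr16:49519562-49519591 (+) and chr9:7177022-7177051 (-). All but that of Tctn2, which lies just before the gene, overlap an exon of their gene in the GENCODE annotation. A match describes letters and does not show that a factor binds there.

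There were 6326 barcodes with 71021773 UMIs in the control library and 4296 with 48866478 in the Gli2EKO library (medians per barcode 9796.5 and 10054.5), and no barcode sequence occurred in both. After filtering, 3324 control and 2302 Gli2EKO keratinocytes remained, at a median of 12427 and 12887.5 UMIs per cell. They fell into 15 clusters and, by marker genes, into 12 classes, with the members left out of the genes used for clustering. The classes were named "-like" for their markers. Cluster 9, led by Flrt2, Tagln, Slit3 and Acta2, and cluster 7, led by histone genes, stayed unnamed. Class shares differed between the libraries: interfollicular epidermis (IFE) basal-like cells were 11.9% of control and 25.7% of Gli2EKO keratinocytes, IFE suprabasal-like cells 6.50% and 13.5%, matrix-like cells 13.3% and 7.30%, and inner root sheath (IRS)-like cells 10.1% and 5.86%. Although the labels name the tissue epidermis, fibroblast-like cells (844 and 644), melanocyte-like cells (104 and 67) and immune-like cells (95 and 45) were also present. The deleted gene could not serve to check the genotype. Its 3′ counts were 83.6 CPM (UMIs scaled to a common total per class or library) in control and 85.1 in Gli2EKO keratinocytes, and which exons the allele loses was not given in the sources used here. The members lie on 17 chromosomes and are all protein coding. Exons of 25 of them overlap an antisense gene and those of Efcab7 overlap Gm26425 on the same strand, so that reads of such pairs may not be fully separated.

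The 42 genes together made up a small part of the keratinocyte transcriptome, 0.104% of UMIs in the control library and 0.0882% in the Gli2EKO library. Their sum differed between the keratinocyte classes. In the control library it was highest in outer root sheath (ORS) stem cell-like cells, at 1475 CPM (1427 to 1525), and lowest in IFE suprabasal-like cells, at 568 CPM (548 to 590). The Gli2EKO library had the same classes at the ends, with 1495 CPM (1433 to 1559) and 517 CPM (499.5 to 534). IFE basal-like cells stood low in both libraries, at 770.1 CPM (749 to 792) and 752 CPM (734 to 770). Between these ends, cluster 9 had 1363 and 1239 CPM in control and Gli2EKO, hair shaft and early lineage-like cells 1269 and 1245, and cluster 7 1218 and 1198. IRS-like, matrix-like and lower ORS-like cells had 1171, 1155 and 1149.7 CPM in the control library and 1079, 1024 and 1172 in the Gli2EKO library. The intervals of these 3 classes overlapped in the control library, so their order there is not resolved. Upper follicle-like cells had 1077 and 975 CPM, companion-like cells 927 and 867, and sebaceous gland-like cells, with 44 and 26 cells, 649.7 and 544.

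**Figure D1:**
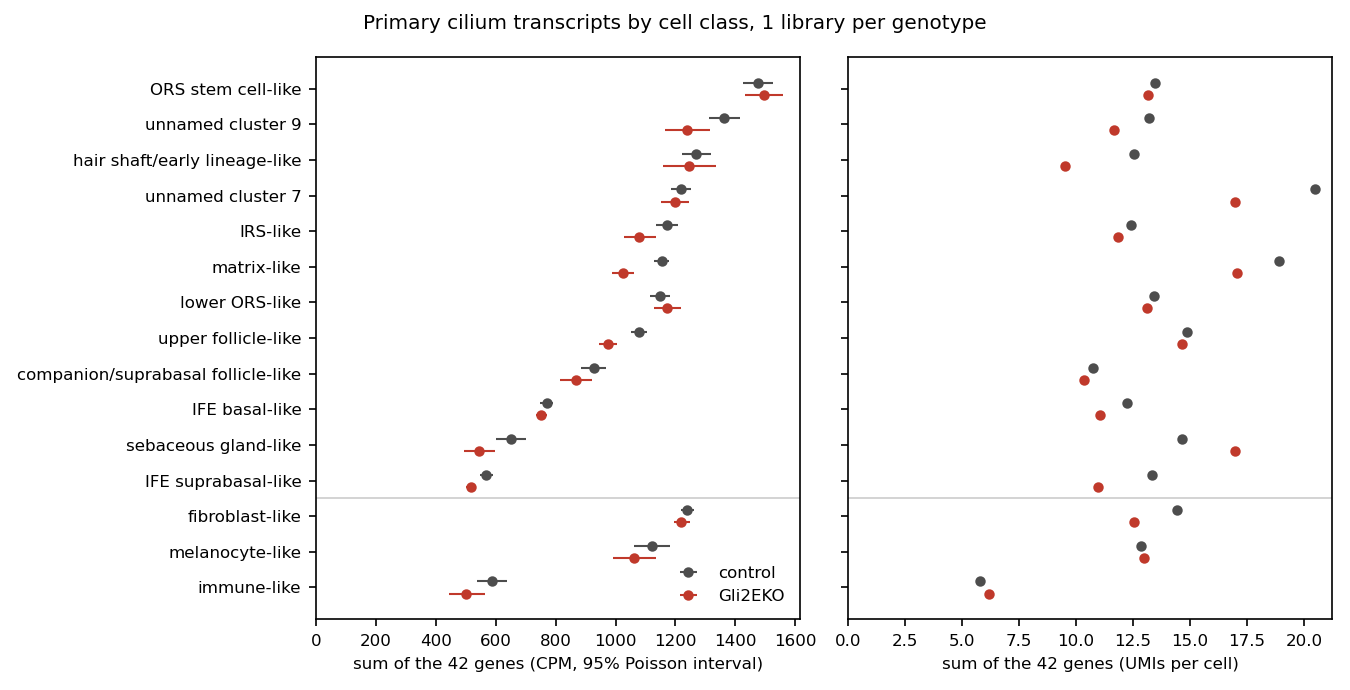
Summed UMIs of the 42 primary cilium genes in each cell class, as CPM with 95% Poisson intervals (left) and as UMIs per cell (right), for the control and Gli2EKO libraries. ORS stem cell-like cells have the highest keratinocyte CPM and IFE suprabasal-like cells the lowest in both libraries, whereas UMIs per cell differ less between those classes.

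CPM measures the share of a cell's RNA, and the classes differed in RNA per cell. IFE suprabasal-like cells had a median of 21070 and 19058 UMIs, basal-like cells 14789.5 and 13775, and ORS stem cell-like cells 8473 and 8145.5. Counted per cell, the members gave 13.4 and 11.0 UMIs in suprabasal-like cells, 12.3 and 11.0 in basal-like cells, and 13.5 and 13.1 in ORS stem cell-like cells. The order of classes by CPM was thus not the order by UMIs per cell. Cluster 7 and matrix-like cells were highest per cell, with 20.5 and 18.9 UMIs in the control library and 16.97 and 17.1 in the Gli2EKO library, where the small sebaceous class also had 17.

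Gene by gene, the same classes stood at the ends. Among the 11 keratinocyte classes other than the small sebaceous class, 32 of the 42 genes had their lowest CPM in suprabasal-like cells in the control library and 34 in the Gli2EKO library. The class with the highest CPM varied more. It was ORS stem cell-like for 13 and 14 genes, cluster 9 for 10 and 9, and hair shaft and early lineage-like for 7 and 7. The lowest class was the same in both libraries for 30 genes and the highest class for 16. Across the 11 classes the control and Gli2EKO CPM of a gene had a median Pearson r of 0.81 (range 0.41 to 0.97), with 40 of 42 genes over 0.5. The classes of a library share its depth, and a gene with few UMIs has a noisy profile.

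Arl13b, a ciliary GTPase that shapes the ciliary membrane's protein content, had 174 CPM (158 to 192) in ORS stem cell-like cells of the control library. It had 132 CPM in companion-like, 125 in lower ORS-like, 82.8 in upper follicle-like and 75.1 in matrix-like cells, 53.8 in basal-like and 41.98 in suprabasal-like cells. The Gli2EKO values in the same order were 166, 110, 85.8, 83.8, 63.9, 43.8 and 39.0 CPM. Arl13b was therefore highest along the outer layers of the follicle in both libraries. Tulp3, which brings membrane receptors into the cilium, had a different profile. It was highest in hair shaft and early lineage-like cells (77.3 and 91.6 CPM) and next in cluster 9 (69.9 and 50.7 CPM), with 14.5 and 17.3 CPM in basal-like and 10.2 and 7.41 CPM in suprabasal-like cells.

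Ift20 and Cc2d2a departed most from the common profile. Ift20 encodes an IFT-B subunit that is also found at the Golgi, where it takes part in sorting membrane cargo to the cilium. It had 156 and 147 CPM in suprabasal-like cells, above its 80.6 and 92.4 CPM in basal-like cells, and reached 186 and 225 CPM in sebaceous gland-like cells. Cc2d2a, which encodes a transition zone scaffold, had 55.8 and 45.5 CPM in basal-like cells, its highest class in the control library and level with hair shaft and early lineage-like cells (45.8 CPM) in the Gli2EKO library. It had 15.2 and 15.3 CPM in suprabasal-like cells and 26.5 and 13.02 CPM in ORS stem cell-like cells, so that it alone of the members stood lower in ORS stem cell-like than in basal-like cells in the control library.

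**Figure D2:**
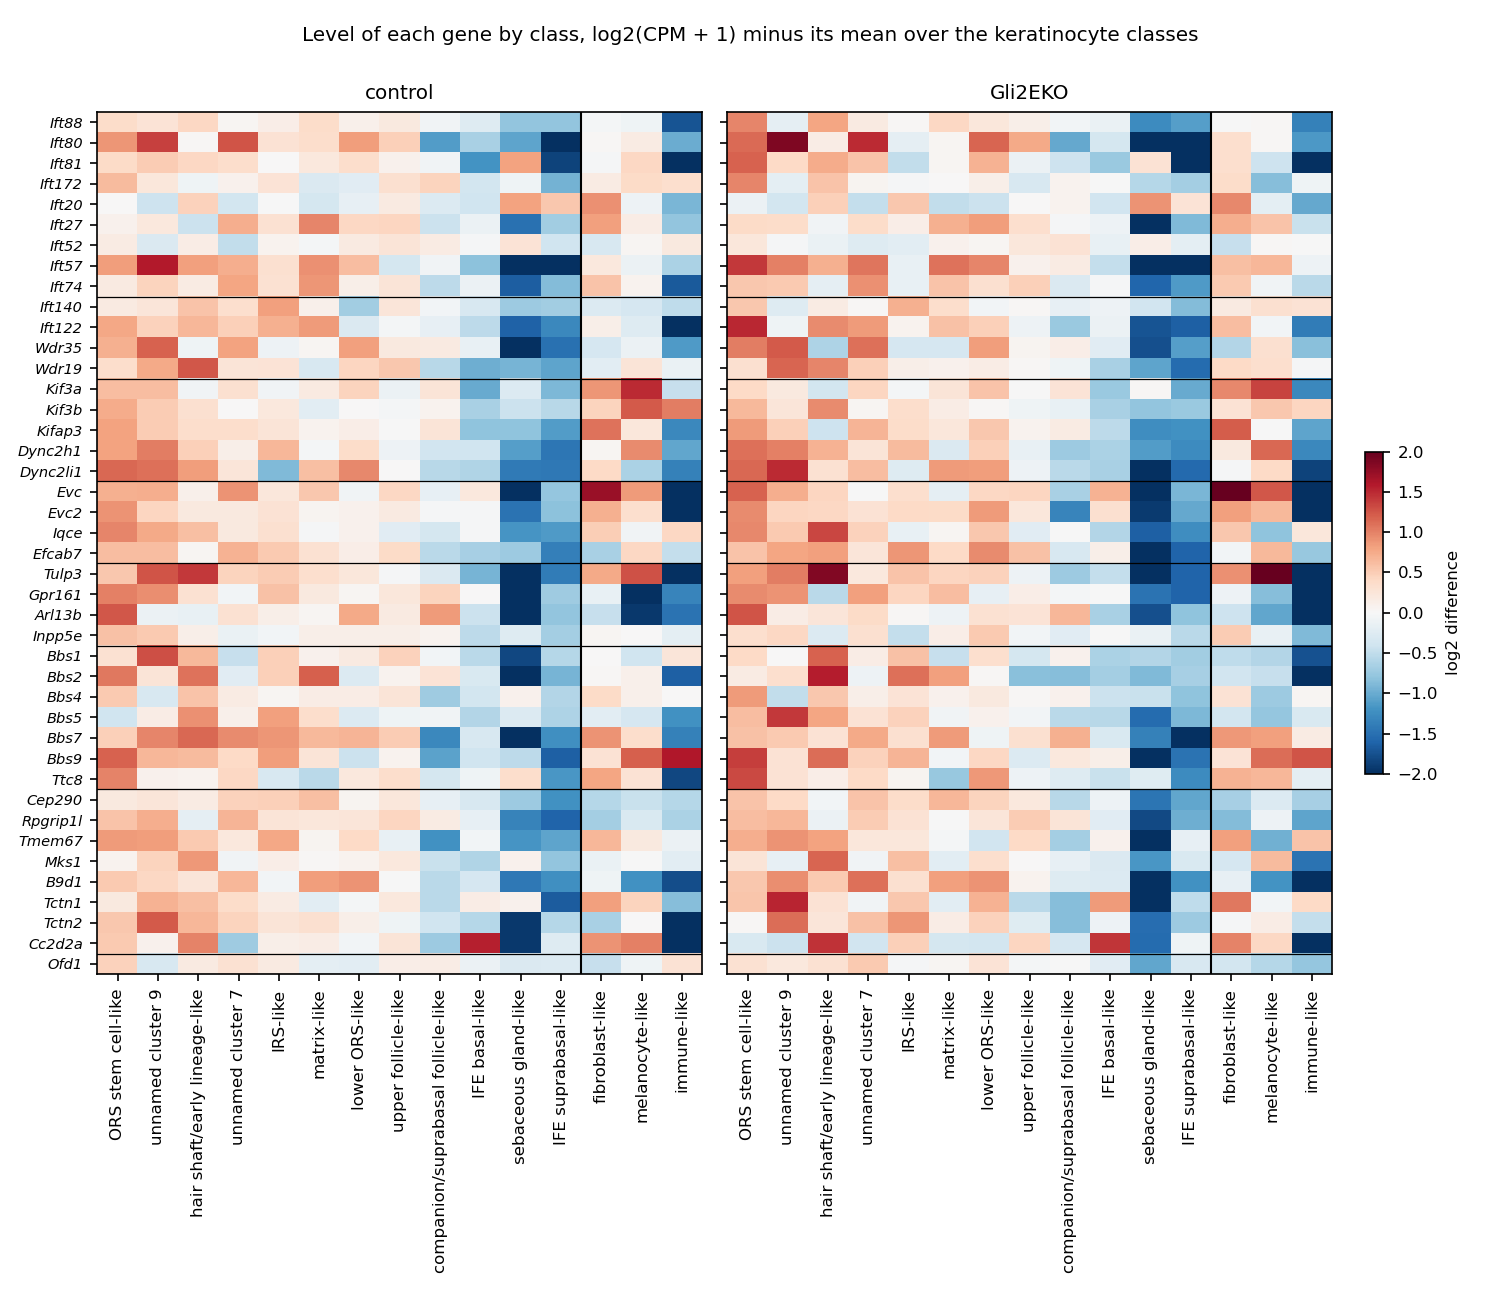
Heat map of log2(CPM + 1) for each of the 42 genes, minus the gene's mean over the keratinocyte classes. Columns are the keratinocyte classes and, after a dividing line, fibroblast-like, melanocyte-like and immune-like cells. The control library is in the left panel and the Gli2EKO library in the right, and the colour scale is cut at -2 and 2. Most genes are below their mean in IFE suprabasal-like cells in both panels, with Ift20 among the exceptions.

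Suprabasal-like cells were compared with basal-like cells of the same library, as the step from the proliferating layer of the epidermis to its differentiating layers. The summed members were lower in suprabasal-like cells by CPM, with a log2 ratio of -0.44 (-0.51 to -0.37) in the control library and -0.54 (-0.60 to -0.48) in the Gli2EKO library. Per cell the log2 ratios of the sum were 0.12 and -0.01, but the role groups differed. IFT-B had 0.59 and 0.36 per cell, the motors 0.12 and -0.01, and the ciliary membrane signalling genes 0.15 and 0.04. IFT-A had -0.39 and -0.54, the Evc complex -0.45 and -0.97, and the BBSome -0.27 and -0.54. The part of RNA content in the CPM difference was not tested. By CPM all but 3 of the 42 genes were lower in the control library and all but 2 in the Gli2EKO library. Their intervals were below 0 for 27 and 28 genes and above 0 for 1 in each library. A gene was called here, and in every comparison that follows, when its log2 ratio was at least 0.5 either way and it had at least 100 UMIs over the groups compared. On that rule 13 of the 22 members with enough UMIs fell in the control library, where 33.1% of all genes tested did, and Ift20 rose, as did 13.1% of all genes. In the Gli2EKO library 18 of 24 fell (background 36.3%) and Ift20 rose (background 12.1%). The median log2 ratio of the members tested was -0.67 and -0.84, compared with -0.21 and -0.27 over all genes tested.

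The role groups differed in this step. The summed log2 ratio of the transition zone genes was -1.26 in the control and -1.06 in the Gli2EKO library, that of the Evc complex -1.02 and -1.50, that of IFT-A -0.95 and -1.07, and that of the BBSome -0.83 and -1.07. The kinesin-2 and dynein-2 motor genes had -0.45 and -0.55 and the ciliary membrane signalling genes -0.42 and -0.49. IFT-B, whose UMIs are mostly those of Ift20 in suprabasal-like cells, had 0.02 and -0.18. Among single genes of the control library, Cc2d2a fell by 1.88 on the log2 scale, the transition zone gene Rpgrip1l by 1.57, the IFT-A gene Wdr35 by 1.45, the BBSome gene Bbs9 by 1.38 and Iqce, which anchors the Evc complex near the ciliary base, by 1.22. The dynein-2 heavy chain gene Dync2h1 fell from 38.6 to 18.1 CPM (log2 ratio -1.09), Evc2 from 15.5 to 8.48 CPM (-0.87) and Ift88, a core IFT-B gene, from 34.0 to 23.3 CPM (-0.55).

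Several members were not called in this step. In the control library the log2 ratio was -0.50 for Tulp3 (-1.02 to 0.00), -0.36 for Arl13b, -0.32 for the kinesin-associated gene Kifap3, -0.17 for the centriolar gene Ofd1, 0.09 for Kif3b and 0.12 for Kif3a, the kinesin-2 motor subunits. Ift20 rose by 0.95 (0.79 to 1.12), and in the Gli2EKO library by 0.67 (0.53 to 0.81). In the Gli2EKO library the genes that fell furthest were Efcab7, a partner of Iqce (-2.06), Bbs9 (-1.78), the IFT-B gene Ift81 (-1.61), Cc2d2a (-1.58) and Evc2 (-1.49). Tulp3 (-1.22), Ift88 (-1.02) and Dync2h1 (-0.66) were also called there. Kif3a (-0.29), Arl13b (-0.17), Kif3b (-0.10), Ofd1 (-0.09) and Ift52 (-0.05) were not. Kif3a, Kif3b, Arl13b and Ofd1 thus passed the fold in neither library, whereas Kifap3 fell in the Gli2EKO library (-0.70). Evc had 16 UMIs in suprabasal-like and 45 in basal-like cells of the control library and 13 and 70 in the Gli2EKO library. Gpr161, a ciliary receptor that restrains Hedgehog signalling, had 19 and 43 and then 7 and 45. Inpp5e, the ciliary phosphoinositide phosphatase, had 14 and 20 and then 17 and 36, and these 3 genes were too sparse to call.

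ORS stem cell-like cells were compared with basal-like cells in the same way, since both are progenitor compartments of the skin epithelium. The members were higher in the follicle compartment, with a log2 ratio of the sum of 0.94 (0.87 to 1.00) in the control and 0.99 (0.92 to 1.06) in the Gli2EKO library by CPM, and of 0.14 and 0.25 per cell. They were higher for 41 of the 42 genes in the control library and 40 in the Gli2EKO library, with intervals above 0 for 32 and 29 and below 0 for 1 in each. Of the members with enough UMIs, 20 of 25 rose in the control library (background 29.4%) and 23 of 27 in the Gli2EKO library (29.3%). Cc2d2a fell in both, by 1.07 and 1.81 (background 16.8% and 17.4%). The median was 0.97 and 1.14, compared with 0.15 over all genes tested in either library.

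The genes of the ciliary membrane had the highest summed ratio of the role groups. Arl13b, Tulp3, Gpr161 and Inpp5e together had 239 CPM in ORS stem cell-like and 78.3 CPM in basal-like cells of the control library, and 226 and 70.5 CPM in the Gli2EKO library (log2 ratios 1.61 and 1.68). The motors followed with 1.501 and 1.506, then the BBSome (1.23 and 1.38), IFT-A (0.95 and 1.23), the Evc complex (1.02 and 0.87), IFT-B (0.65 and 0.78), Ofd1 (0.58 and 0.55) and the transition zone (0.27 and 0.26). These are ratios of CPM. Per cell the ciliary membrane genes had 0.81 and 0.94 and the motors 0.70 and 0.77, whereas IFT-B had -0.15 (-0.27 to -0.03) and 0.04. The low value of the transition zone group went with Cc2d2a, its only member that fell. In the control library the highest single ratios were those of the IFT-B genes Ift57 (40.0 against 11.97 CPM, log2 ratio 1.74) and Ift81 (1.66), of Arl13b (1.69), of Kif3a (43.8 against 13.6 CPM, 1.69) and of Bbs9 (1.64). Tulp3 had 1.54, Dync2h1 1.22, Evc2 0.97 and Ift88 0.64. Outside Cc2d2a the lowest were the IFT-B genes Ift52 (0.19), Ift27 (0.21), Ift74 (0.31) and Ift20 (0.41), which were not called.

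The Gli2EKO library gave a similar order. Ift81 (2.00), Ift57 (2.00), Arl13b (1.92), the BBSome gene Ttc8 (1.89) and Dync2h1 (1.76) were highest, followed among the genes named above by Tulp3 (1.34), Kif3a (1.19), Ift88 (1.13) and Evc2 (0.65). Efcab7 (0.49), Ift27 (0.49), Ift52 (0.39) and Ift20 (0.27) were not called. Evc had 25 UMIs in ORS stem cell-like and 45 in basal-like cells of the control library, and 17 and 70 in the Gli2EKO library. Gpr161 had 35 and 43 and then 16 and 45, and Inpp5e 19 and 20 and then 8 and 36. The lists used to check the classes moved too. The dissociation stress genes summed to 9521 and 8956 CPM in basal-like, 6669 and 6655 in suprabasal-like, 4466 and 3544 in ORS stem cell-like and 2549 and 2266 in matrix-like cells, and their part in these ratios was not tested.

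**Figure D3:**
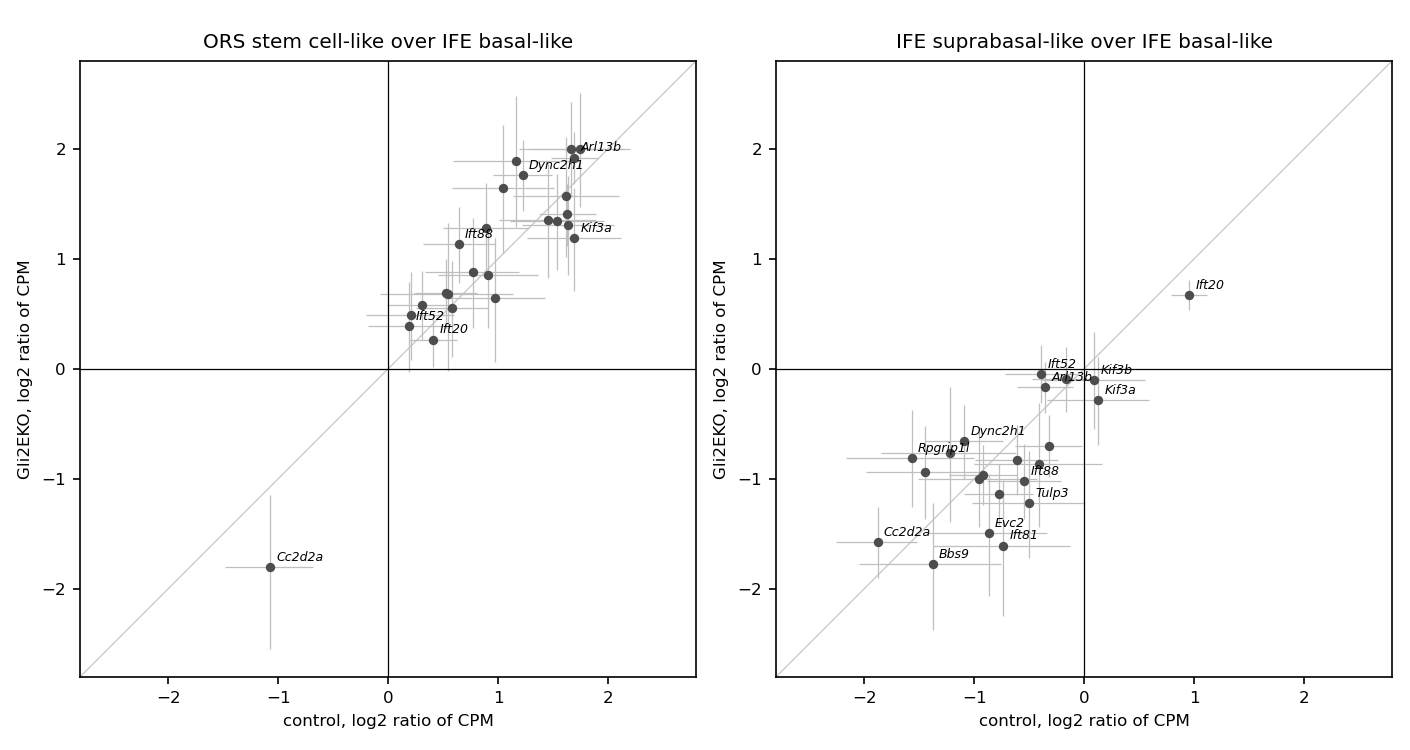
Log2 ratio of CPM between cell classes of the same library, with the control library on the x axis and the Gli2EKO library on the y axis. Only members with at least 100 UMIs over the classes compared in each library are drawn. The left panel compares ORS stem cell-like and the right panel IFE suprabasal-like cells with IFE basal-like cells. Most genes drawn lie above 0 in the first and below 0 in the second in both libraries, with Cc2d2a and Ift20 at the opposite sides.

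Matrix-like cells, the dividing progenitors at the follicle base, whose leading genes included Shh, the ligand of the Hedgehog pathway, were also higher than basal-like cells. The log2 ratio of the sum was 0.58 (0.53 to 0.64) in the control and 0.45 (0.38 to 0.51) in the Gli2EKO library, and 0.63 in each library per cell. The ratio was above 0 for 37 of 42 genes in the control library and 34 in the Gli2EKO library. Of the members with enough UMIs 19 of 35 rose in the control library (background 33.6%) and 2 fell (19.4%), and 13 of 26 rose in the Gli2EKO library (26.4%) and 1 fell (20.6%). Ift57 rose most in both, from 11.97 to 42.3 CPM in the control library (1.82) and by 1.67 in the Gli2EKO library. The next in the control library were Bbs2 (1.72), the IFT-A gene Ift122 (1.53), Ift81 (1.48) and the dynein-2 light intermediate chain gene Dync2li1 (1.33). Tulp3 (1.31), Kif3a (1.24) and Ift88 (0.65) rose as well. Arl13b (0.48), Dync2h1 (0.37), Evc (0.37), Gpr161 (0.20), Evc2 (0.09), Iqce (0.01), Ift52 (-0.03) and Ofd1 (-0.08) were not called. The 2 genes that fell were Ttc8 (-0.50) and Cc2d2a (-1.46). In the Gli2EKO library B9d1, a transition zone gene (1.13), Kif3a (1.05), Tulp3 (0.94), Kif3b (0.84), Ift88 (0.56) and Arl13b (0.55) rose, Dync2h1 had 0.35, and Cc2d2a fell by 1.87. Matrix-like cells had 1682 and 1647 CPM of fibroblast markers, mostly Dcn, the highest of any keratinocyte class, compared with 28253 and 25598 in fibroblast-like cells. Without Dcn they had 116 and 104 CPM, compared with 113 and 91.1 in basal-like cells. The part of these markers in the ratios was not tested.

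Other follicle classes stood above basal-like cells by CPM as well. The log2 ratio of the sum was 0.58 and 0.64 for lower ORS-like, 0.60 and 0.52 for IRS-like, and 0.48 and 0.38 for upper follicle-like cells in control and Gli2EKO. Per cell the ratios were smaller or near 0, at 0.13 and 0.25, 0.02 (-0.04 to 0.08) and 0.10, and 0.28 and 0.41 in the same order. In lower ORS-like cells 15 of 28 members with enough UMIs rose in the control library (background 25.5%) and 18 of 27 in the Gli2EKO library (23%). In IRS-like cells 14 of 26 rose (39.4%) and 12 of 24 (32.1%). Sebaceous gland-like cells, which hold lipid-producing sebocytes, were set against upper follicle-like cells and were lower, with log2 ratios of -0.73 and -0.84. There 39 of 42 genes were lower in either library, and 18 of 24 fell in the control library (38.3%) and 13 of 17 in the Gli2EKO library (46.8%). Arl13b had 17.1 and 19.7 CPM in sebaceous gland-like cells, Ift57 4.03 CPM in the control library and no UMI in the Gli2EKO library, and Evc no UMI in either. Per cell the ratios of the sum were -0.02 and 0.21, and the role groups again differed. IFT-B had 0.53 and 0.89 per cell and the motors -0.02 and 0.18. IFT-A had -1.11 and -0.35, the Evc complex -0.90 and -1.89, and the ciliary membrane signalling genes -1.48 and -0.98. The part of RNA content in the lower share was not tested.

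Because cilia are taken apart for division, clusters rich in division genes were each set against a cluster that scored highest for the same class. In the control library the division genes had 5866 CPM in cluster 7 and 860 in cluster 1, 4855 in cluster 12 and 456 in cluster 6, and 6086 in cluster 13 and 925 in cluster 4. The summed members differed far less by CPM, with 1218 and 1149.7, 806 and 796, and 1095 and 1064 in the same pairs. Per cell they were higher in the dividing clusters, with 20.5 and 13.4, 17.9 and 11.0, and 20.2 and 12.3 UMIs. Those clusters also held more RNA per cell, with a median of 16665 and 11325, 21462.5 and 13773.5, and 17565 and 11672 UMIs. The Gli2EKO sums were 1198 and 1172, 753 and 816, and 995 and 955 CPM, so the second pair went the other way there, and per cell 16.97 and 13.1, 14.4 and 10.8, and 18.4 and 12.02 UMIs. Of the members with enough UMIs, 5 of 28 rose and 3 fell in the first pair (background 11.9% and 9.88%), 0 of 12 rose and 1 fell in the second (11.9% and 9.29%), and 2 of 24 rose and 1 fell in the third (9.24% and 8.04%). The medians over the members were 0.11, 0.03 and 0.15. The Gli2EKO counts were 1 of 18 risen and 0 fallen (10.6% and 8.36%), 1 of 18 and 3 (10.1% and 11%), and 1 of 14 and 0 (7.64% and 9.04%), with medians of 0.08, -0.13 and 0.16. In its second pair 30 of all 42 genes were lower. In the control library, by contrast, genes listed for cilium disassembly, among them Aurka, Plk1, Kif24 and Nde1, rose in 6 of 9, 6 of 7 and 6 of 8 cases. These genes also serve mitosis itself, and 10 of the 12 division genes rose in each pair. The share of RNA from the cilium genes thus differed little with the division genes while their UMIs per cell were higher, and the assay does not show whether a cell carries a cilium.

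Fibroblast-like cells, which also carry cilia and are not recombined by K14Cre, had 1239 CPM (1217 to 1261) of the members in the control and 1220 CPM in the Gli2EKO library. Compared with all keratinocytes of the library, the log2 ratio was 0.25 (0.22 to 0.28) and 0.47 (0.43 to 0.50) by CPM, and -0.01 and -0.02 per cell. The genes went both ways: 20 of 42 were higher in the control library and 27 in the Gli2EKO library, and 13 of 42 rose (background 25.5%) and 6 fell (32.8%) in the control library. In the Gli2EKO library 17 of 41 rose (28.4%) and 3 fell (29.0%). Evc, the partner of Evc2 that promotes Smoothened signalling at the ciliary base, rose most, from 7.65 CPM in keratinocytes to 22.4 CPM in fibroblast-like cells of the control library (1.55) and from 5.61 to 21.6 CPM in the Gli2EKO library (1.95). Kifap3 followed with 64.3 and 136 CPM (1.09), then Ift20 (0.94), Kif3a with 28.2 and 53.2 CPM (0.92) and the transition zone gene Tctn1 (0.92). Evc2 (0.65) and Tulp3 (0.62) rose too. Inpp5e (0.08), Dync2h1 (-0.01), Ift88 (-0.10) and Gpr161 (-0.39) were not called. The genes that fell were led by Tctn2 (-0.92), Rpgrip1l (-0.87), Efcab7 (-0.85), Cep290 (-0.72) and Arl13b (-0.63), of which Tctn2, Rpgrip1l and Cep290 belong to the transition zone. In the Gli2EKO library Evc, Kifap3 (1.31), Kif3a (1.17), Tulp3 (1.03) and Ift20 (1.03) stood at the upper end and Rpgrip1l (-0.93), Cep290 (-0.70), Wdr35 (-0.65), Ift52 (-0.43) and Arl13b (-0.34) at the lower end. Of the 5 genes at each end, 4 at the upper end and 3 at the lower were the same in both libraries.

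Immune-like cells had the lowest sum of the cell types other than keratinocytes, 586 CPM (538 to 637) and 501 CPM (444 to 563), at a median of 9886 and 12618 UMIs per cell. The log2 ratio to keratinocytes was -0.83 (-0.96 to -0.71) and -0.82 (-0.99 to -0.65) by CPM and -1.32 and -1.04 per cell. The sum was close to that of suprabasal-like keratinocytes by CPM, but per cell it was 5.81 and 6.2 UMIs against 13.4 and 11.0. Relative to keratinocytes 29 of 42 members fell (background 38.1%) and 2 rose (22.6%) in the control library, and 25 of 41 fell (36.8%) and 4 rose (24.6%) in the Gli2EKO library. The ciliary membrane genes were low, with 35.1 CPM against 126 in control and 21.5 against 97.9 in Gli2EKO (log2 ratios -1.85 and -2.19). Evc had no UMI in immune-like cells of either library, which at a floor of 3 counts makes keratinocytes at least 2.40-fold higher in the control library. Tctn2 had none in the control library (at least 2.29-fold) and B9d1 and Evc2 had none in the Gli2EKO library (at least 4.75-fold and 2.50-fold). Bbs9 and Kif3b were the exceptions and rose in both libraries, Bbs9 with 60.5 against 20.9 CPM (1.53) and 37.7 against 15.6 CPM (1.27), and Kif3b with 45.7 against 21.2 CPM (1.11) and 26.9 against 17.3 CPM (0.64). Subunits of the same complex or motor thus differed in direction between these cell types.

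Melanocyte-like cells, the pigment cells of the follicle, had a sum of 1121 and 1062 CPM, a log2 ratio to keratinocytes of 0.10 (0.02 to 0.18) in the control and 0.27 (0.17 to 0.37) in the Gli2EKO library, and -0.17 and 0.03 per cell. In the control library 8 members rose (background 23.7%) and 5 fell (33.4%), and in the Gli2EKO library 15 of 41 rose (26%) and 9 fell (29.2%). The motors were higher in both libraries (0.82 and 0.90), whereas the ciliary membrane genes had -0.43 in the control and 0.56 in the Gli2EKO library. Kif3a rose in the control library to 81.3 CPM (1.53), Kif3b to 52.8 CPM (1.32) and Tulp3 to 70.4 CPM (1.14), and Bbs9 (1.11) and Dync2h1 (0.89) rose as well. Arl13b fell from 81.3 to 18.4 CPM (-2.14) and was 33.0 CPM in the Gli2EKO library. B9d1 fell by 1.55, and Gpr161 had no UMI, which makes it at least 3.13-fold lower than in keratinocytes. Tulp3 in the Gli2EKO library was 105 CPM.

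Between the genotypes, the summed members were lower in Gli2EKO than in control keratinocytes, at 882 CPM (872 to 892) against 1044 CPM (1034 to 1053), a log2 ratio of -0.24 (-0.26 to -0.22). Per cell there were 12.7 against 14.5 UMIs. The median over all 13720 genes tested was -0.14 and that over the members -0.31. Of the 42 members 37 were lower and 5 higher, with an interval below 0 for 29 and above 0 for 1. All 42 had enough UMIs, and 9 of them fell, while 11.4% of all genes tested did. No member rose, while 4.47% of all genes did. Among genes within the UMI range of the members the background was 10.7% and 3.69%. The IFT-B sum was 359.6 and 332 CPM in control and Gli2EKO (log2 ratio -0.11), IFT-A 57.5 and 44.2 (-0.38), motors 178 and 140.5 (-0.34), the Evc complex 53.4 and 42.2 (-0.34), ciliary membrane signalling 126 and 97.9 (-0.36), the BBSome 71.5 and 55.3 (-0.37), the transition zone 160.3 and 139 (-0.20) and Ofd1 37.3 and 30.4 (-0.29). Every role group was lower in the Gli2EKO library with class shares as found, and the group sums are not given at equal class shares.

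The libraries differ in their class shares, and the classes that were more frequent in Gli2EKO, basal-like and suprabasal-like, had the lowest sums of the larger classes. With the Gli2EKO classes weighted to their shares in the control library, the log2 ratio of the sum was -0.08 (-0.11 to -0.06) and 1 member fell, Ift57, while 5.38% of all genes fell and 2.81% rose. The medians were then -0.15 over the members and -0.06 over all genes tested. Of the 42 genes 35 moved nearer to 0 and 9 changed sign, leaving 32 lower, 19 with an interval below 0 and 5 above 0. Those 5 were B9d1 and the IFT-B genes Ift20 (0.14), Ift27 (0.14), Ift52 (0.12) and Ift74 (0.10). The other IFT-B genes, Ift57, Ift80, Ift88, Ift81 and Ift172, stayed lower, so this group went both ways. The difference in the sum was thus smaller at equal class shares.

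**Figure D4:**
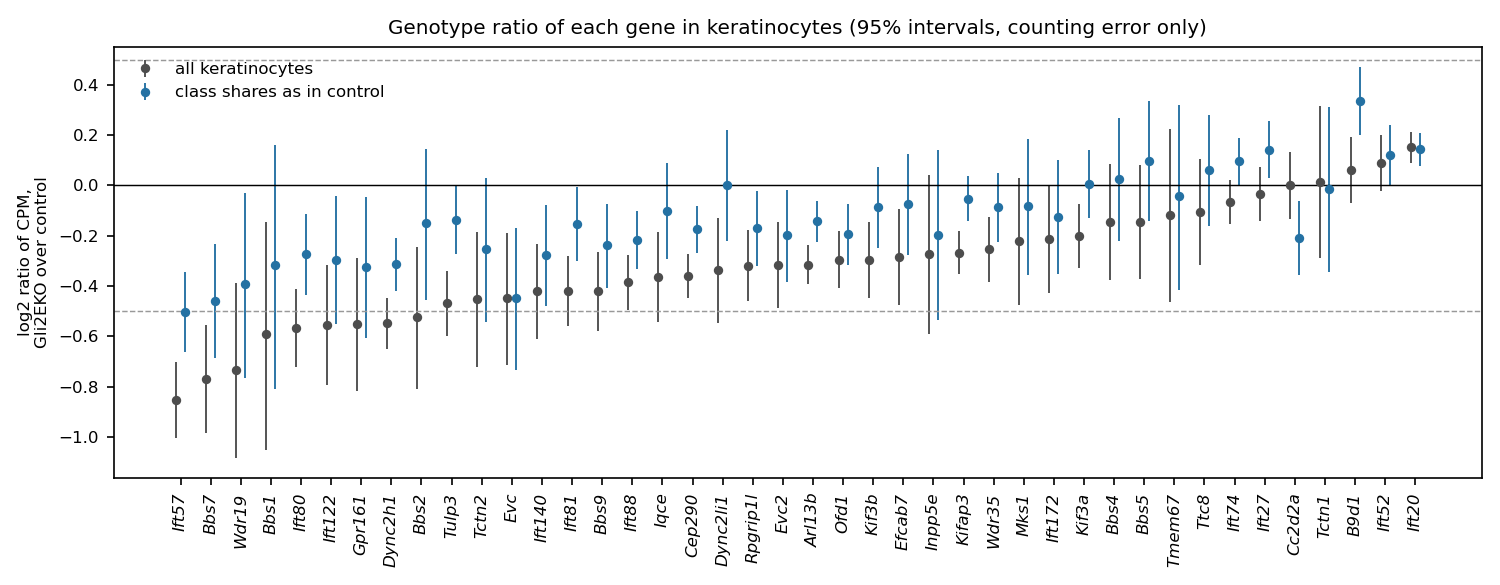
Log2 ratio of Gli2EKO to control CPM in keratinocytes for each of the 42 genes with 95% counting intervals, for all keratinocytes as found and with class shares set to those of the control library. Ift57 has the lowest ratio in both settings, and most ratios move towards 0 at equal class shares.

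By role, the genes that fell were the IFT-B genes Ift57 and Ift80, the IFT-A genes Ift122 and Wdr19, the dynein-2 gene Dync2h1, the BBSome genes Bbs1, Bbs2 and Bbs7, and Gpr161. Ift57 had 27.2 CPM in the control and 15.1 in the Gli2EKO library, a log2 ratio of -0.85 (-1.005 to -0.70). At control class shares it had -0.502 (-0.66 to -0.34), just past the limit. It was lower in all 12 keratinocyte classes, with as few as 4 UMIs over both libraries in a class. Dync2h1 had 53.2 and 36.4 CPM (-0.55, and -0.31 at control class shares) and was also lower in 12 of 12 classes. The 12 classes of a library come from the same cell suspension and are not replicates. Bbs7 had 13.2 and 7.72 CPM (-0.77, and -0.46), Wdr19 5.01 and 3.02 (-0.73, and -0.39), Bbs1 2.82 and 1.87 (-0.59, and -0.31), Ift80 22.5 and 15.2 (-0.57, and -0.27), Ift122 9.56 and 6.52 (-0.55), Gpr161 7.87 and 5.37 (-0.55, and -0.32) and Bbs2 6.89 and 4.80 (-0.52). At equal shares each of these but Ift57 was within the fold.

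Of the other genes near Hedgehog signalling, Tulp3 had 31.9 and 23.1 CPM in control and Gli2EKO keratinocytes (-0.47, and -0.14 at control class shares), Arl13b 81.3 and 65.4 (-0.31, and -0.14) and Inpp5e 4.92 and 4.07 (-0.27, and -0.20). Evc had 7.65 and 5.61 CPM, with -0.45 before and after weighting, and Evc2 16.8 and 13.5 (-0.32, and -0.20), lower in 11 of 12 classes. Ift88, which was deleted in other mice of the study, had 42.5 and 32.5 CPM (-0.39, and -0.22). Kif3a had 28.2 and 24.5 CPM (-0.20, and 0.01), so its difference was not seen at equal class shares. None of these 7 genes was called. At the other end, Ift20 had 105 and 116 CPM (0.15, 0.09 to 0.21), the only interval above 0 before weighting, and was higher in 10 of 12 classes. Ift52 had 33.0 and 35.1 CPM (0.09), B9d1 24.5 and 25.6 (0.06, and 0.34 at control class shares, higher in 11 of 12 classes), Tctn1 4.75 and 4.80 (0.01) and Cc2d2a 23.8 and 23.8 (0.00, and -0.21).

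Within classes the sums of the 2 libraries were closer. The log2 ratio of Gli2EKO to control was 0.02 in ORS stem cell-like, 0.03 in lower ORS-like, -0.02 in cluster 7, -0.03 in hair shaft and early lineage-like and -0.03 (-0.09 to 0.02) in basal-like cells. It was -0.10 in companion-like, -0.12 (-0.20 to -0.03) in IRS-like, -0.14 in suprabasal-like, upper follicle-like and cluster 9 cells, -0.17 (-0.23 to -0.11) in matrix-like and -0.25 (-0.43 to -0.08) in sebaceous gland-like cells. ORS stem cell-like, lower ORS-like and basal-like cells were thus nearly level between genotypes, while matrix-like cells and the sebaceous class were lowest relative to control. In basal-like cells 22 genes were lower and 20 higher. Of 30 members tested there, Iqce (-0.74) and Dync2h1 (-0.55) fell (background 5.19%), and Efcab7 and Tctn1 rose, by 0.55 each (3.18%). In matrix-like cells 5 of 30 fell, where 8.76% of all genes did: Ift80 (-0.76), Cc2d2a (-0.70), Bbs9 (-0.67), Ift122 (-0.64) and Dync2h1 (-0.57). None rose there (4.05%). In upper follicle-like cells Ift172 (-0.87), Bbs9 (-0.71) and Ift140 (-0.52) fell, 3 of 29 (11.1%), and none rose (2.88%).

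In ORS stem cell-like cells no member of the 22 tested fell (background 6.31%), and Ift81 (0.60) and Ift27 (0.50) rose (4.66%). In suprabasal-like cells 1 of 16 fell (7.49%), Ift88, from 23.3 to 15.1 CPM (-0.62), and none rose (2.65%). Of 21 members tested in IRS-like cells, 2 fell (12%) and 2 rose (5.82%), and of 23 in lower ORS-like cells 1 fell (5.35%) and 2 rose (2.75%). In cluster 7, 2 of 25 fell (6.08%) and 1 rose (2.82%), in cluster 9, 2 of 14 fell (8.19%) and 0 rose (5.6%), in companion-like cells 2 of 10 fell (7.78%) and 1 rose (4.12%), and in hair shaft and early lineage-like cells 1 of 10 fell (6.77%) and 0 rose (6.68%). Only Ift20 had enough UMIs in sebaceous gland-like cells, and it was not called (20% and 8.33%). With 30 or fewer members tested in a class, a single gene moves such a share by several percentage points.

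Fibroblast-like cells give the same comparison in cells that K14Cre does not target. Their summed members had a log2 ratio of -0.02 (-0.06 to 0.02) by CPM, with 27 genes lower and 15 higher. Per cell there were 12.5 UMIs in Gli2EKO against 14.4 in control. That log2 ratio was -0.20 (-0.24 to -0.16), compared with -0.19 per cell in keratinocytes. Of 36 members tested, Dync2li1 fell, from 13.1 to 8.92 CPM (-0.56), where 4.65% of all genes did, and none rose (3.01%). Ift20 had 202 and 237 CPM (0.24, 0.14 to 0.33) and was thus higher in the Gli2EKO library in both cell types. Ift88 had 39.6 and 33.6 CPM (-0.24), Dync2h1 -0.17, Tulp3 -0.06, Evc -0.05, Arl13b -0.02 and Kif3a 0.05, Cep290 had -0.35 and Efcab7 0.33. Ift57, the lowest gene in keratinocytes, had -0.27 (-0.58 to 0.03) here and was not called.

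Related genes from lists kept apart from the members gave the wider setting. In keratinocytes, where 11.4% of all genes tested fell, 4 of 14 other IFT and BBSome genes tested fell in the Gli2EKO library (Traf3ip1, Ttc26, Arl6 and Bbs12) and 3 of 14 genes of the basal body and of cilium initiation (Ttbk2 with 5.18 and 3.53 CPM, Cep97 and Ccp110). None of 6 carriers of lipidated ciliary cargo fell. At control class shares, where 5.38% of all genes fell, Bbs12 alone of these genes did. Of 5 RFX factors and Foxj1 with enough UMIs, Rfx3, a regulator of cilium genes, fell from 43.4 to 30.4 CPM (-0.51, and -0.21 at control class shares). Of 15 genes of motile cilia, which keratinocytes do not build, 2 had enough UMIs to be tested, Dnah11 and Rsph9, and both fell, Dnah11 also at control class shares. Of 11 Hedgehog genes that act at the cilium or answer to it, 4 fell against the same 11.4%: the target Gli1 from 22.1 to 12.3 CPM (-0.84, and -0.53 at control class shares), the receptor gene Ptch1 from 177 to 116 CPM (-0.61, and -0.43), Gli3 from 164 to 88.8 CPM (-0.89, and -0.44) and Hhip. At control class shares 2 of the 11 were called, Gli1 and Hhip. Smo, the ciliary signal transducer of the pathway, had 105 and 88.4 CPM (-0.24, and -0.11 at control class shares), and the negative regulator Sufu and the ciliary kinesin gene Kif7 had -0.49 and -0.47 (-0.25 and -0.20).

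The same lists followed the members between classes. From basal-like to suprabasal-like cells of the control library, 5 of 8 other IFT and BBSome genes fell, 6 of 7 other transition zone genes, 6 of 11 basal body genes and 4 of 5 carriers, where 33.1% of all genes tested fell. From basal-like to ORS stem cell-like cells 6 of 8, 6 of 7, 4 of 11 and 4 of 5 rose, where 29.4% of all genes did. The cilium disassembly list also fell in suprabasal-like cells, with 7 of 7 lower. In ORS stem cell-like cells it went the other way from the members, with 5 of 8 lower and 2 higher. The division list did the same, with 12 of 12 lower in suprabasal-like and 9 of 12 lower in ORS stem cell-like cells. Basal-like cells hold the dividing cells of the epidermis, so these lists do not separate cilium disassembly from division.

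Detection per cell was compared at a fixed depth of 5000 UMIs, with 328 control and 199 Gli2EKO keratinocytes under that depth left out. At that depth a keratinocyte had UMIs for a mean of 4.68 of the 42 genes in the control library (SD over 2996 cells 2.31) and 4.04 in the Gli2EKO library (SD over 2103 cells 2.23), a difference of -0.64. Without thinning the median was 9 and 8 genes. By class the mean was 6.14 and 6.24 genes in ORS stem cell-like, 5.86 and 5.21 in cluster 9, 5.09 and 4.41 in matrix-like, 3.36 and 3.37 in basal-like and 2.46 and 2.21 in suprabasal-like cells. Fibroblast-like cells had 5.11 and 4.81 and immune-like cells 2.72 and 2.35.

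Arl13b gave the clearest picture of detection. At 5000 UMIs it was found in 54.4% (47.9 to 60.9) and 55.4% of ORS stem cell-like cells, 22.0% and 18.5% of basal-like and 16.1% and 17.2% of suprabasal-like cells. In immune-like cells, which served as the level in cells described as lacking cilia, it was found in 9 of 71 control cells, 12.7% (6.0 to 22.7), and in 1 of 40 Gli2EKO cells. The suprabasal share was thus close to the immune share in the control library, where the intervals do not separate them. In the Gli2EKO library it was 17.2% (13.1 to 22.0) against 2.5% (0.063 to 13.2), whose intervals barely overlap. The ORS share was above the immune share in both libraries. Over all keratinocytes the share was 33.8% and 26.8% thinned and 55.3% and 50.5% unthinned. Cc2d2a was found in 24.7% and 20.8% of basal-like and 8.02% and 5.73% of ORS stem cell-like cells, compared with 1.41% and 2.50% of immune-like cells. Tulp3 was found in 18.6% and 20.4% of ORS stem cell-like and 7.86% and 7.54% of basal-like cells, and its 2.84% and 3.72% in suprabasal-like cells lay near the 2.82% and 2.50% of immune-like cells. Dync2h1 was found in 34.2% and 28.7% of ORS stem cell-like and 20.1% and 14.2% of basal-like cells. It also had 14.1% and 12.5% in immune-like cells, so that its basal share was near that background in the Gli2EKO library. That background rests on 71 control and 40 Gli2EKO cells, and the control basal share was not clearly above it.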

How the data were processed

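The data were single-cell RNA profiles of dorsal epidermis, 1 control and 1 Gli2EKO library, with the genotype taken from the labels. The authors aligned the reads with Cell Ranger 9.0.1 to GRCm39 with GENCODE M30 annotation and deposited filtered matrices of UMI counts per gene and barcode, without normalization. GENCODE M39, which uses the same build, gave the coordinates, by gene identifier for 42 of 42 members.

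Cells with over 1000 and under 8000 genes and under 15% mitochondrial UMIs were kept. Doublets were scored with Scrublet (scanpy 1.11.5, Python 3.11.15), where the study used scDblFinder, and the top 8% of scores were removed per library, since the automatic threshold marked 261 control and 5 Gli2EKO cells. Clustering used Seurat 5.3.0 in R 4.3.3 (2000 variable genes without the members and cilium lists, 20 components, resolution 0.5) after integration with a new implementation of the Harmony algorithm. Clusters were first sorted into cell types by marker excess over the median of the clusters, with a limit of 0.4, and keratinocyte clusters were then named from marker lists. The hair shaft and early lineage lists were joined after a cluster was seen to hold both. The members and all lists, written from general knowledge, were chosen with earlier results of these data known.

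For each class of a library, summed UMIs were divided by all UMIs of the class (CPM). Intervals are exact Poisson for CPM, exact conditional binomial for log2 ratios and Clopper-Pearson for shares. A PCR copy of a molecule is removed by its UMI, but cells of a library are not independent samples. A gene was called at a log2 ratio of 0.5 or more, with 0.5 UMIs added to each sum, and 100 UMIs or more. The scripts were tested on simulated counts. The genotype comparison of the other transition zone genes is not reported here. The genes named in each main comparison were 9 set ones (Ift88, Kif3a, Dync2h1, Arl13b, Evc, Evc2, Tulp3, Gpr161, Inpp5e) and the 5 members at each end of the log2 ratios. Alternatives covered doublet removal, resolution, integration, the mitochondrial limit, scaling, class definition, the UMI and fold limits and the thinning depth. UMIs per cell, cluster shares, basal-like cells without cluster 8, a background matched in UMIs and the calls at control class shares, for members and related lists, were added after seeing the data.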

Additional observations from a re-analysis of the deposited data

How the results depend on the processing

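Of the alternatives to the summed ratios, counts and detection values, 60 stayed within the limits set for a like value, 22 moved past them and 2 reversed. With no doublets removed, the log2 ratio of the sum was -0.064 between genotypes in fibroblast-like cells, -0.60 for suprabasal-like over basal-like and 0.40 for matrix-like over basal-like cells. With the automatic doublet threshold these were -0.067, -0.56 and 0.43. At resolution 0.8 the matrix-like ratio was 0.64. Scaling without mitochondrial genes and the 50 most abundant genes gave -0.21 between genotypes in keratinocytes, 0.16 for fibroblast-like cells over keratinocytes and 0.49 for matrix-like cells, and moved the median over all genes from -0.14 to -0.10 and that over the members from -0.31 to -0.28, with 36 members lower and 8 called. The mean of each cell's CPM gave -0.21 between genotypes, 5 called members and 0.19 for fibroblast-like cells. Classes from per-cell marker scores gave -0.54 for suprabasal-like and 0.64 for matrix-like cells. At a log2 limit of 0.3 there were 22 members called, and at 1 there were 0. Cells thinned to 2000 UMIs differed by -0.28 genes and those thinned to 10000 by -1.08. UMIs per cell, added after seeing the data, gave -0.19 between genotypes in keratinocytes, -0.20 in fibroblast-like cells, and a reversed sign for fibroblast-like cells over keratinocytes (-0.0065) and for suprabasal-like over basal-like cells (0.12), since the cell types differ in RNA per cell. Without cluster 8 among basal-like cells, also added, the matrix-like ratio was 0.53. At control class shares Kif3a reversed between genotypes, to 0.0057, and 1 member was called in place of 9. The cause of the other movements was not tested. No paired analysis was possible because each group has 1 sample, and for the same reason no replicate could be left out. Depth limits the rarer members: Evc, Gpr161 and Inpp5e could not be called within most classes.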
